A study of Mus musculus with 23 samples.

Results

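The 3 deposited mature rows of miR-9, mir-9-1, mir-9-2 and mir-9-3, were followed through small RNA libraries of 23 mouse retinas. They were picked by name and are 3 of the 903 mature rows in the table. All retinas were taken at postnatal day 90. All groups but the wild type carried 1 allele of the P23H rhodopsin knock-in (P23H+/- KI). P23H is a misfolding rhodopsin change that causes retinitis pigmentosa in people. Of these mice, 7 had received DNA nanoparticles with the genomic form of mouse rhodopsin (mouse gRho), 2 had received the same kind of particle with human rhodopsin (human gRHO), 1 had received saline and 3 were left uninjected. The wild type (WT) was 2 untreated C57B mice without the knock-in. The labels give neither the dose, the route and the day of injection, nor the background strain of the knock-in line. The number of mice was read from the titles, which appear to hold a cage or animal number, an ear mark and an eye, and eyes of 1 mouse were added together. The leading numbers do not recur across treatments, so treatment and whatever that number stands for cannot be told apart.

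miR-9 is a small regulatory RNA of the nervous system that is conserved across bilaterian animals. In vertebrate neural tissue it restrains progenitor genes and is kept in mature neurons and in Müller glia, the radial glia of the retina. A miRNA is cut from a hairpin with a 5p and a 3p arm, and bases 2 to 8 of the arm, the seed, pair with target transcripts. In mice 3 loci encode the same arms, so a sequenced mature miR-9 does not show which locus made it.

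The arms and hairpins are shown because the counts turn on what the copies share. All 3 rows matched the RefSeq table (build GRCm38.p6). The genome build of the deposited counts is not given in the sources used here. Capitals mark the seed in the arms, and both arms in the hairpins.
mmu-miR-9-5p: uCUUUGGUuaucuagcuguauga
mmu-miR-9-3p: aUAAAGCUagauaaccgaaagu
mir-9-1: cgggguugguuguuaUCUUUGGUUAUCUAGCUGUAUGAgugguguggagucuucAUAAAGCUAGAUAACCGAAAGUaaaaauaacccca
mir-9-2: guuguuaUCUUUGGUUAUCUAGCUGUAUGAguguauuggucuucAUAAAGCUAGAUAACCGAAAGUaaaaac
mir-9-3: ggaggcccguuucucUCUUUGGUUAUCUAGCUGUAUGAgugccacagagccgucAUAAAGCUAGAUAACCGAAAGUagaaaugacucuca

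Both arms are identical in the 3 hairpins. Outside the arms, mir-9-1 and mir-9-2 are identical for 7 bases before and 3 after the 5p arm, and for 6 bases before and 5 after the 3p arm. The 7 bases reach the start of the annotated mir-9-2 hairpin, so where that match ends is not shown. mir-9-3 shares 0 bases before and 3 after the 5p arm with either of them, and 2 before and 1 after the 3p arm. Among 1679 mature miRNA names in the RefSeq table, 0 others carry either seed. In RefSeq, Mir9-1 lies at chr3:88215598-88215686, Mir9-2 at chr13:83738814-83738885 and Mir9-3 at chr7:79505264-79505353, all on the plus strand. In GENCODE M21, Mir9-1 is intronic in all 5 transcripts of the lincRNA Gm3764 that span it, and Mir9-3 in all 4 of its host lincRNA Mir9-3hg. Mir9-2 overlaps an exon in 2 of the 3 spanning transcripts of the lincRNA C130071C03Rik and is intronic in the other.

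Sequencing depth ran from 5968388 to 16048954 mature miRNA reads a library. The mature rows together held only 10.4% to 19.5% of them, and a row names no arm, so each value is that of the deposited row and not of a known arm. Counts were scaled to 1000000 mature miRNA reads per library (CPM). Over all libraries mir-9-1 held 759063 reads, mir-9-2 758355 and mir-9-3 596984, which placed them 6th, 7th and 9th among the 903 mature rows. The 3 rows together made up a median of 0.921% of mature miRNA reads, with a range from 0.260% to 1.31%. Marker rows of retinal cells were present. Summed over mir-183, mir-182 and mir-96, miRNAs of photoreceptors, levels ran from 52.9 to 943 CPM in mouse gRho, from 699 to 821 in human gRHO, from 691 to 769 in saline, from 198 to 805 in uninjected P23H and from 306 to 1101 in WT libraries. In bulk retina, fewer cells of a type and less RNA per cell cannot be told apart.

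mir-9-1 and mir-9-2 gave the same value. Their ratio lay between 0.988 and 1.01 in all 23 libraries, and a two-sided exact binomial test of equal counts gave p-values from 0.0887 to 0.936. They differed by no more than the counting noise and are treated below as 1 measurement. mir-9-3 was lower, at a median of 0.778 reads for each mir-9-1 read. In 20 libraries this ratio lay between 0.740 and 0.803.

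The other 3 libraries stood above that range. The ratio of mir-9-3 to mir-9-1 was 0.900 in the right eye of mouse gRho mouse 1 (95% counting interval 0.873 to 0.928), 0.827 in uninjected mouse 2 (0.804 to 0.850) and 0.976 in WT mouse 2 (0.961 to 0.991). In WT mouse 2 all 3 rows were close, with 32246, 31853 and 31461 reads, and the difference between mir-9-3 and mir-9-2 did not pass the test (exact binomial p = 0.120). In WT mouse 1 the rows held 30466, 30541 and 24035 reads. Crossmapped reads, a class of the authors' alignment table, also stood apart in these libraries, but not in 1 direction. Their share of miRNA reads was the highest of 23 in the right eye of mouse gRho mouse 1 (17.9%) and in uninjected mouse 2 (15.2%) and the lowest in WT mouse 2 (5.52%), against 10.1% to 13.5% in the other 20 libraries. The part of this in the ratio was not tested. Since the rows name no arm, whether all 3 rows of WT mouse 2 hold the same arm as in the other libraries cannot be told. That limit applies to each of the 3 rows in every comparison with WT, which has 2 mice.

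**Figure D1:**
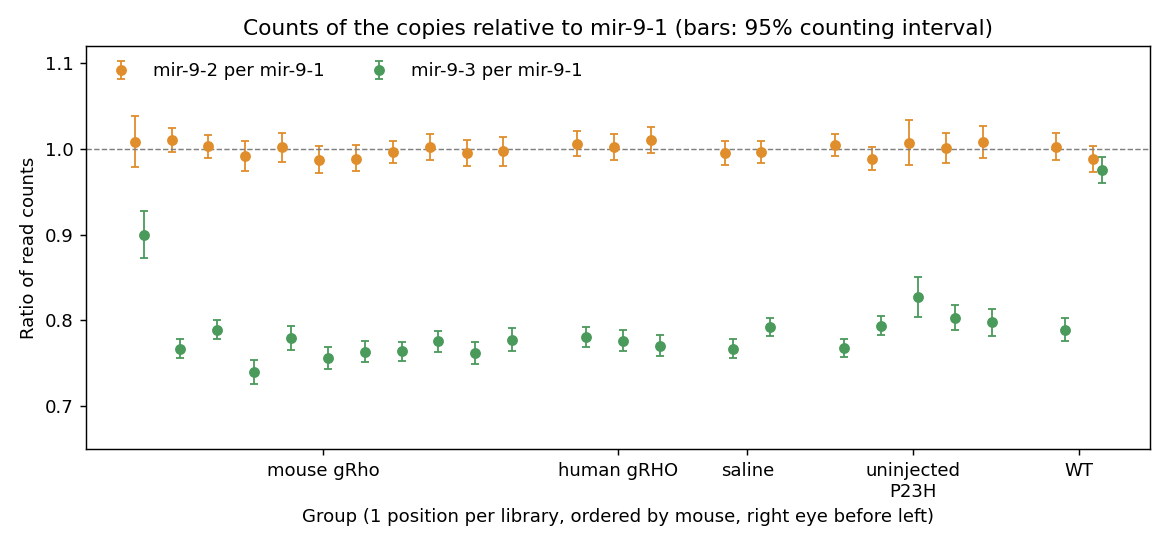
Reads of mir-9-2 (orange) and mir-9-3 (green) for each read of mir-9-1 in the 23 libraries, by group, with 95% counting intervals (Wilson). Orange points lie between 0.988 and 1.01, while green points lie mostly between 0.740 and 0.803, with WT mouse 2 at 0.976.

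**Figure D2:**
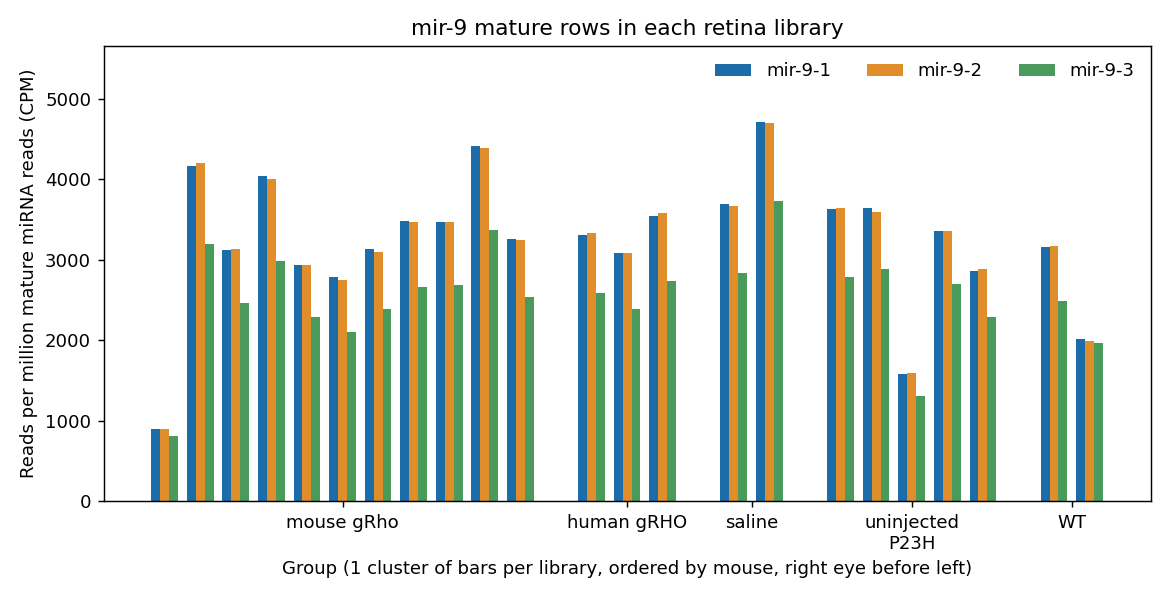
Level of the 3 mir-9 mature rows in each library, in CPM, with bars for mir-9-1, mir-9-2 and mir-9-3. mir-9-1 runs from 895 to 4711 CPM, and its lowest bars are the right eye of mouse gRho mouse 1 and uninjected mouse 2.

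Since shared reads cannot be assigned to a locus, the level of miR-9 is given as the sum of the 3 rows per mouse. The mouse gRho mice had 7104 CPM at the lowest, 9148 at the median and 12168 at the highest. The human gRHO mice had 8885 and 9842 CPM, and the saline mouse 11602. The uninjected P23H mice had 10090, 4477 and 8698 CPM, and the WT mice 8816 and 5954.

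Mouse gRho overlapped with every other group, and uninjected P23H with human gRHO and WT. The saline mouse lay above every human gRHO, uninjected and WT mouse. Both human gRHO mice lay above both WT mice, the lower of them by 8885 against 8816 CPM. By mean the order was saline, human gRHO (9363 ± 677 CPM, SD, n = 2), mouse gRho (9189 ± 1593, SD, n = 7), uninjected P23H (7755 ± 2923, SD, n = 3) and WT (7385 ± 2024, SD, n = 2). Neighbours from human gRHO down to WT differed by less than the SD over mice of at least 1 of them. The order is that of CPM without edgeR's TMM factors, which equalise the bulk of rows. With these factors, a scale chosen after seeing the data, summed miR-9 (log2) was -0.43 for uninjected P23H over WT. It was 0.08 for mouse gRho over WT, so WT was no longer lowest. Without both libraries lowest in miR-9, the means were 9825 ± 1508 CPM in mouse gRho (SD, n = 7) and 9394 ± 984 in uninjected P23H (SD, n = 2).

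**Figure D3:**
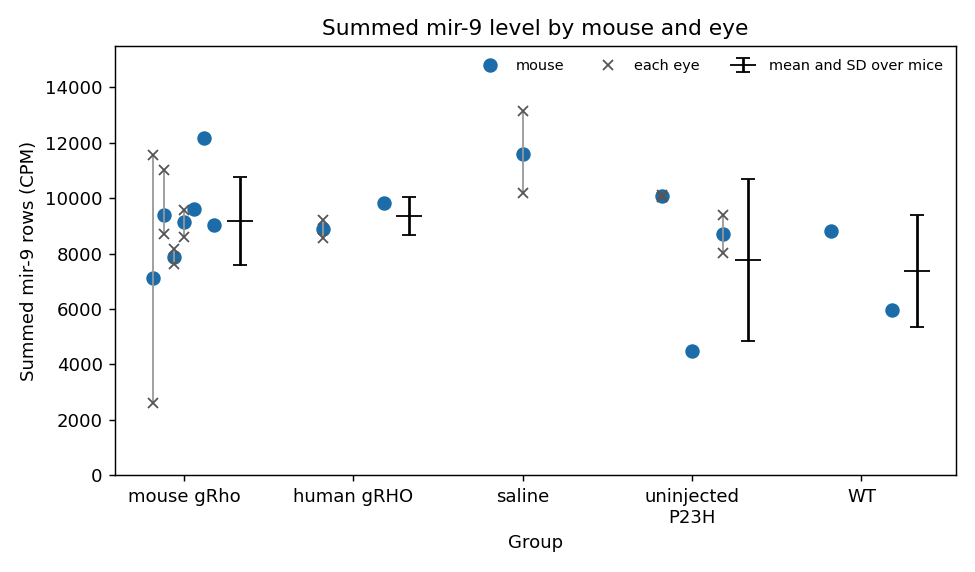
Summed mir-9 level by group, in CPM. Filled circles are mice, crosses joined by a line are the eyes of 1 mouse, and black bars give the mean and SD over mice; saline has 1 mouse. Mouse gRho mouse 1 has eyes at 2601 and 11555 CPM, and uninjected mouse 2 stands at 4477 CPM.

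A pair of libraries stood lowest in summed miR-9. Without them the SD over mice fell from 2923 (n = 3) to 984 CPM (n = 2) in uninjected P23H. In mouse gRho it changed little, from 1593 to 1508 CPM. Since these libraries were lowest in this same measure, a smaller spread without them is no separate result. The right eye of mouse gRho mouse 1 had 2601 CPM of summed miR-9 and its left eye 11555, a 4.44-fold difference within 1 animal. Uninjected mouse 2, of which 1 eye was sequenced, had 4477 CPM. The other 21 libraries lay between 5954 and 13137 CPM.

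These libraries were also the lowest of 23 for photoreceptor and neuronal rows. The photoreceptor rows summed to 52.9 CPM in the right eye of mouse gRho mouse 1 and 198 in uninjected mouse 2, against 296 to 1101 in the other 21. The neuronal rows mir-124-1, mir-124-2 and mir-124-3 summed to 10.6 and 97.3 CPM, against 172 to 498. In that right eye summed miR-9 lay at -1.82 (log2) from the median of the 23 libraries, beside -4.46 for mir-124-1 and -4.14 for mir-182.

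Rows of other cells were not low in these libraries. The Müller glia list, mir-204 with the miR-125 and miR-99/100 rows (7 of 7 used), summed to 409 and 359 CPM in these libraries, against 129 to 596 in the other 21. The endothelial and mural rows mir-126a, mir-143 and mir-145a (3 of 3 used) were the highest of 23, at 2888 and 2490 CPM, against 746 to 1970. Rows of surface epithelium, lens and cornea (7 of 9 used) summed to 322 and 146 CPM, against 68.5 to 147, and those of microglia and leukocytes (3 of 5 used) to 67.7 and 49.4, against 20.3 to 59.7. Muscle rows (3 of 6 used) summed to 878 and 1149 CPM, against 67.4 to 1090. The pigment epithelium rows mir-204, mir-211 and mir-184 (3 of 3 used) were within the others' range, at 181 and 155 CPM against 63.2 to 308, as were the red blood cell rows mir-451a and mir-144 (2 of 4 used), at 1366 and 1723 CPM against 77.9 to 2285. Every list had reads in all of the rows used. The part of tissue composition in the low miR-9 of these libraries was not tested.

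Low mir-182 did not go with low miR-9 in every retina. In mouse gRho mouse 6, mir-182 lay at -1.54 and mir-124-1 at -0.91 (log2) from the median of libraries, and summed miR-9 at 0.40. The left eye of mouse gRho mouse 4 had mir-182 at -1.62, mir-124-1 at -0.83 and summed miR-9 at 0.06.

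**Figure D4:**
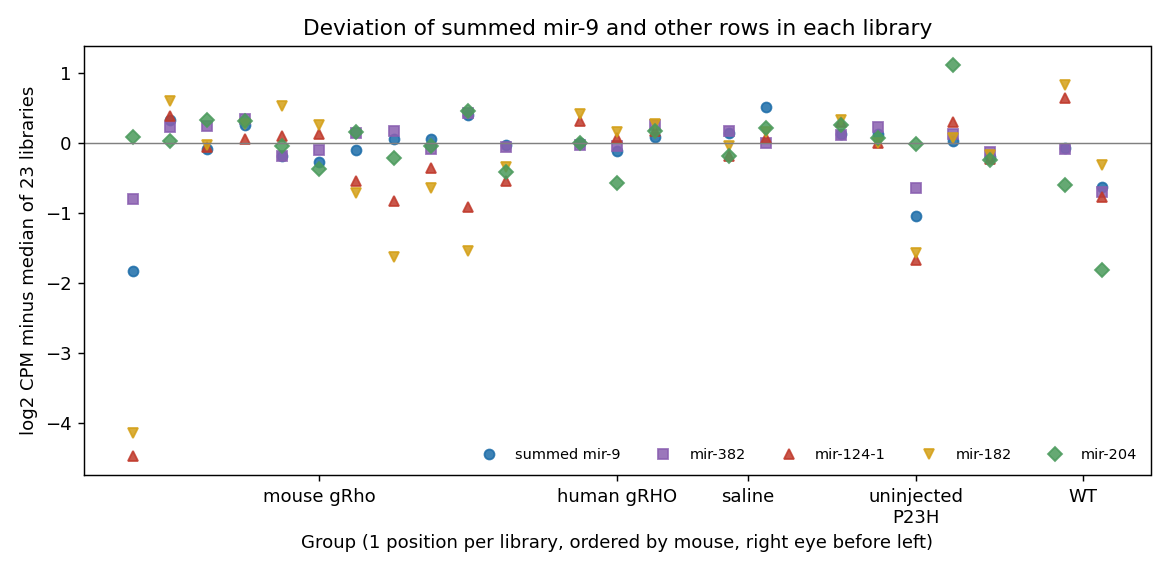
Difference of each library's log2 CPM from the median of 23 libraries for summed mir-9, mir-382, mir-124-1, mir-182 and mir-204. In the right eye of mouse gRho mouse 1, mir-124-1 lies at -4.46 and summed mir-9 at -1.82.

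The rows most like miR-9 were those whose log2 ratio to summed miR-9 varied least over the 15 mice, among 123 tested rows that averaged 10 CPM or more. mir-382, of the imprinted Dlk1-Dio3 cluster, came first, with an SD of the log2 ratio of 0.16, where summed miR-9 itself had an SD of 0.36. It was followed by mir-370 of the same cluster (0.23), mir-181b-1 (0.23), mir-132 (0.23) and mir-190b (0.23). mir-124-1 ranked 59th (0.50), mir-204 66th (0.52) and mir-182 106th (0.71). The ratios share each mouse's depth and are a description with no test. They rest on sums per mouse, in which the eyes of mouse gRho mouse 1 are added. In its right eye summed miR-9 lay at -1.82 (log2) from the median of libraries. There mir-382 lay at -0.80, mir-181b-1 at -1.02, mir-370 at -2.45 and mir-190b at -3.02. Of the rows named as most like miR-9, mir-132 lay closest to it in that eye. The likeness over mice thus did not hold in that library for mir-382, mir-181b-1, mir-370 or mir-190b. Of these rows, mir-190b lay furthest from summed miR-9 there.

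Whether miR-9 differed with the mutation was asked by comparing uninjected P23H with WT. mir-9-1 had 3633, 1580 and 3101 CPM in the uninjected P23H mice, against 3158 and 2009 in WT mice. mir-9-3 had 2836, 1307 and 2483 CPM in uninjected P23H, against 2492 and 1960 in WT. The groups overlapped, and the lowest mouse was an uninjected one.

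Rows were tested with edgeR's quasi-likelihood test over 382 rows, with p-values adjusted by Benjamini-Hochberg. The log2 fold change was -0.29 for mir-9-1 (SE 0.33, adjusted p = 0.677), -0.28 for mir-9-2 (SE 0.33, adjusted p = 0.681) and -0.42 for mir-9-3 (SE 0.32, adjusted p = 0.506). None of the 3 rows passed 0.05, by edgeR or DESeq2, adjusted or not, while 1.57% of all rows did after adjustment with edgeR. That count was 6 rows, and was 0 without WT mouse 2 and 60 without WT mouse 1. Leaving out uninjected mouse 1, 2 or 3 alone also gave a count of 0. The sign of the mir-9 rows depended on the scale. edgeR's TMM factors, which equalise the bulk of rows, were 0.734 in WT mouse 2 and 0.964 to 1.26 in the other WT and uninjected mice. Without them the typical row shifted by 0.43, and mir-9-1 stood at 0.10 and mir-9-3 at -0.01. Relative to the median of all rows, mir-9-1 stood at -0.19 with the factors and -0.24 without. Leaving out 1 mouse at a time, mir-9-1 differed by -0.55 without uninjected mouse 1, -0.02 without uninjected mouse 2, -0.30 without uninjected mouse 3, -0.07 without WT mouse 1 and -0.36 without WT mouse 2.

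The Müller glia list was also unequal between these groups. It summed to 295 to 596 CPM in uninjected P23H libraries, against 129 to 244 in WT libraries, and was at least 247 CPM in each of the other P23H libraries. The pigment epithelium list, which shares mir-204 with it, ran from 127 to 308 CPM in uninjected P23H, against 63.2 to 104.7 in WT. These sums are CPM without TMM factors, which were 0.964 and 0.734 in the WT mice and 1.01, 1.18 and 1.26 in the uninjected ones. Dividing by the factors would bring the groups closer, and the lists were not compared on that scale. The part of both lists in the comparisons of miR-9 with WT was not tested.

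Mouse gRho was compared with WT to ask whether treated mutant retinas differed from normal ones. mir-9-1 had 2537 CPM at the lowest, 3319 at the median and 4414 at the highest in mouse gRho mice, against 3158 and 2009 in WT mice. mir-9-3 had 2005, 2535 and 3363 CPM at the same ranks in mouse gRho, against 2492 and 1960 in WT. WT mouse 2 lay below all 7 treated mice in both rows, and WT mouse 1 inside their range. The log2 fold change was 0.15 for mir-9-1 (SE 0.29, adjusted p = 0.794), 0.15 for mir-9-2 (SE 0.29, adjusted p = 0.790) and -0.03 for mir-9-3 (SE 0.28, adjusted p = 0.942, edgeR).

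The sign of mir-9-3 depended on either WT mouse. Leaving out WT mouse 2 gave 0.08 for mir-9-1 and 0.04 for mir-9-3, and leaving out WT mouse 1 gave 0.35 for mir-9-1 and 0.0073 for mir-9-3. None of the 3 rows passed by edgeR or DESeq2, adjusted or not, beside 3.14% of all rows after adjustment with edgeR. That count was 12 rows, and was 0 without WT mouse 2 and 64 without WT mouse 1. The Müller glia list, in CPM without TMM factors, summed to 247 to 409 in mouse gRho libraries, against 129 to 244 in WT libraries. Without TMM factors the typical row shifted by 0.25, and mir-9-1 and mir-9-3 stood at 0.36 and 0.20.

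The effect of mouse gRho was asked against uninjected P23H. mir-9-1 had 2537, 3319 and 4414 CPM at the lowest, median and highest mouse gRho mouse, against 3633, 1580 and 3101 in uninjected P23H mice, and all mouse gRho mice but mouse 6 lay within the span of the uninjected mice. The log2 fold change was 0.43 for mir-9-1 (SE 0.26), 0.43 for mir-9-2 (SE 0.26) and 0.39 for mir-9-3 (SE 0.25), each with an adjusted p of 0.913 (edgeR). Of all rows 0% were called, by edgeR (18 at an unadjusted p under 0.05) and by DESeq2 (23). The unadjusted p of the mir-9 rows lay between 0.111 and 0.137. The size depended on single uninjected mice. mir-9-1 differed by 0.70 without uninjected mouse 1 (adjusted p = 0.514, edgeR), by 0.13 without uninjected mouse 2 and by 0.44 without uninjected mouse 3, and without the 6 libraries richest in rRNA, which leaves uninjected mouse 1 alone in its group, by -0.13. The share of rRNA was 5.14% of aligned reads in uninjected mouse 2 and 3.41% in uninjected mouse 3, against 0.358% in uninjected mouse 1. Its part in the result was not tested.

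Human gRHO was set against the same uninjected mice. mir-9-1 had 3192 and 3539 CPM in human gRHO mice, against 3633, 1580 and 3101 in uninjected P23H mice, which enclosed them. The log2 fold change was 0.44 for mir-9-1 (SE 0.33), 0.45 for mir-9-2 (SE 0.33) and 0.40 for mir-9-3 (SE 0.32), each with an adjusted p of 0.930 (edgeR). Of all rows 0% passed with edgeR (10 at an unadjusted p under 0.05) and with DESeq2 (18). mir-9-1 differed by 0.68 without uninjected mouse 1 and by 0.14 without uninjected mouse 2.

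Saline, the control for the procedure, gave the largest difference of the 6 comparisons for each row. mir-9-1 had 4178 CPM in the saline mouse, against 3633, 1580 and 3101 in uninjected P23H mice, and mir-9-3 had 3263 CPM, against 2836, 1307 and 2483. The saline mouse was above all 3 uninjected ones. The log2 fold change was 0.86 for mir-9-1 (SE 0.40), 0.85 for mir-9-2 (SE 0.40) and 0.83 for mir-9-3 (SE 0.39), with an adjusted p of 0.910 for each (edgeR). The unadjusted p of the 3 rows lay between 0.0464 and 0.0474 with edgeR and reached 0.0560 with DESeq2, where 0 of 3 were under 0.05, and 0% of all rows were called by either tool (13 and 14 at an unadjusted p under 0.05). Saline had 1 mouse, and the test assumes that it varies like the others. mir-9-1 differed by 1.10 without uninjected mouse 1 and by 0.54 without uninjected mouse 2.

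The constructs were compared with each other to ask whether the species of the rhodopsin gene mattered. mir-9-1 had 3192 and 3539 CPM in human gRHO mice, against 2537, 3319 and 4414 at the lowest, median and highest mouse gRho mouse, which enclosed both. The log2 fold change was 0.01 for mir-9-1 (SE 0.29), 0.02 for mir-9-2 (SE 0.29) and 0.01 for mir-9-3 (SE 0.28), with an adjusted p of 0.997 for each (edgeR). Of all rows 0% passed with edgeR (11 at an unadjusted p under 0.05) and with DESeq2 (13). The sign turned to -0.14 for mir-9-1 without both libraries lowest in miR-9. With standard errors of this size a difference in either direction could have been missed. The 3 treated or saline groups were each set against the same uninjected mice, so their differences are not separate evidence.

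**Figure D5:**
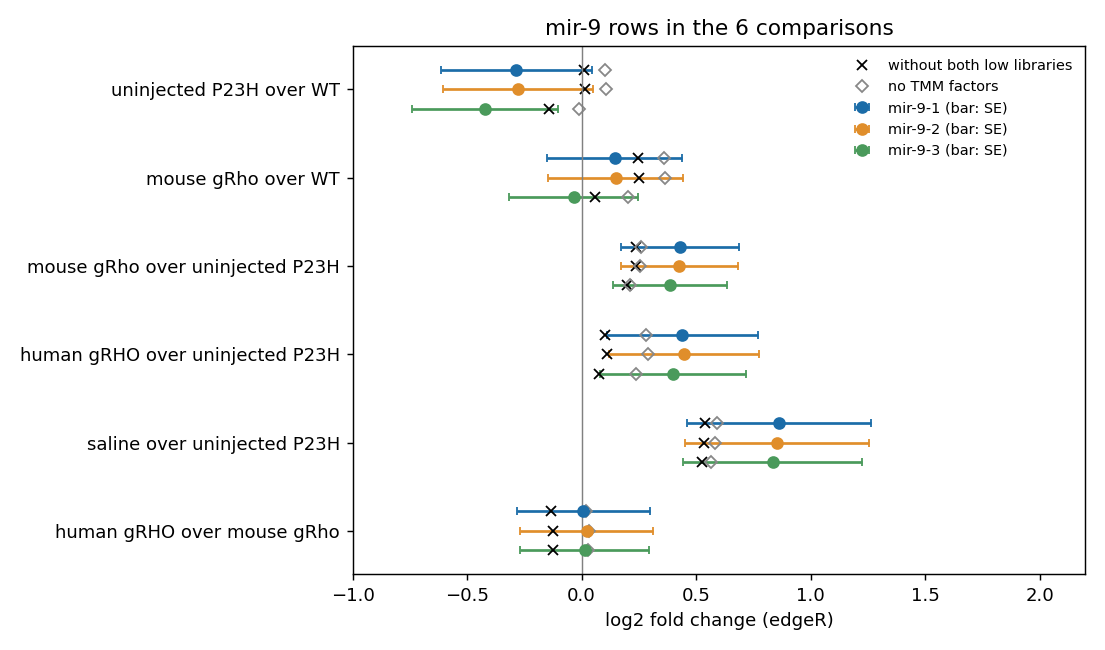
log2 fold changes of the 3 mir-9 rows in the 6 comparisons (edgeR, all groups in 1 fit). Circles with bars give the estimate and its SE, crosses the estimate without the right eye of mouse gRho mouse 1 and uninjected mouse 2, and open diamonds that without TMM factors. mir-9-1 lies at 0.86 for saline over uninjected P23H, and at -0.29 with and 0.10 without TMM factors for uninjected P23H over WT.

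Other neural miRNAs were counted in the same comparisons from a list of 18 loci, covering miR-124, miR-128, miR-137, miR-138, miR-132 and its cluster partner, miR-153, miR-129, miR-218 and miR-7. Of these 14 were tested, and 4 were set aside because their counts jumped between 2 levels. Between uninjected P23H and WT, 0 passed, beside 6 of all 382 rows (1.57%). In that comparison 11 of 14 were lower, with a median log2 fold change of -0.45 beside -0.09 over all rows. Between mouse gRho and WT, 1 of 14 passed, beside 12 of all 382 rows (3.14%). It was mir-153, at -2.40 (SE 0.60, adjusted p = 0.0323, edgeR), in a comparison where 0 rows passed without WT mouse 2. The median of the list there was -0.21, beside -0.01 over all rows.

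Against uninjected P23H, 0 of 14 passed in any treatment, beside 0 of all 382 rows. The list's median was 0.23 for mouse gRho (0.08 over all rows), 0.58 for human gRHO (0.01 over all rows) and 0.53 for saline (-0.0050 over all rows). The comparisons with uninjected P23H, including that with WT, share the same uninjected mice. Among these, mir-124-1 had 32.5 CPM in mouse 2, against 117 in mouse 1 and 109 in mouse 3. The list was not refitted without uninjected mouse 2, and the part of that mouse in these medians was not tested. Between human and mouse gRho the list's median was 0.35, with 0 passing, beside -0.04 over all rows. Copies of 1 miRNA in this list, such as the mir-124 rows, can hold the same reads and are then not independent.

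For 8 mice both eyes were sequenced, and these were paired by animal in the fit. Summed miR-9 was higher in the right eye in 3 mice and lower in 5, with a median log2 ratio of -0.08. The eyes of uninjected mouse 1 were closest, at 10058 CPM in the right and 10124 in the left. For right over left, mir-9-1 differed by -0.39 (SE 0.26), mir-9-2 by -0.39 (SE 0.26) and mir-9-3 by -0.36 (SE 0.24), each with an adjusted p of 0.952 (edgeR, 330 rows, of which 0% were called and 9 had an unadjusted p under 0.05). Without mouse gRho mouse 1, mir-9-1 differed by -0.14 (SE 0.09).

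Almost all reads in the deposited rows of these loci were in the mature rows. For mir-9-3 no precursor or stemloop row was given, while its mature reads are in the total below. Over 23 libraries, 48 reads were counted as precursor and 82 as stemloop for mir-9-1 and mir-9-2, against 2114402 mature reads of the 3 rows, or 22.7 and 38.8 for each 1000000 mature reads of these rows. The mir-9-2 precursor row held 46 of the 48, with 8 in mouse gRho, 13 in human gRHO, 4 in saline, 14 in uninjected P23H and 7 in WT libraries. These counts were too small to compare between groups. The rows mir-9b-1, mir-9b-2 and mir-9b-3, named for a miRNA that RefSeq places on the opposite strand of the same loci, held 48, 57 and 56 reads in all.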

How the data were processed

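Small RNA was sequenced from 23 retinas. Per the labels' protocols, RNA came from frozen retinas by Trizol, and a NEXT Flex small RNA v3 kit gave the libraries. The authors deposited raw counts for each miRNA locus by annotation class, and each library's counts by alignment class. The submitters' processing notes name DESeq2; aligner, annotation and the handling of reads matching several loci were not given in the sources used here. No matrix column was left unused (0 columns).

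CPM are scaled to each library's total of mature miRNA reads, without further factors. The 2 WT libraries, whose titles have another form, were counted as 2 mice, which gave 15 mice; if titles were misread, p-values measure only the spread between these sums. Among 337 rows with 30 reads or more somewhere, 65 jumped between 2 levels (sorted log2(CPM + 0.5) had a gap of 3.5 or more, or of 2 or more where both sides held 2 or more libraries) and were set aside; 0 of the 3 mir-9 rows were. Testing was limited to rows reaching 10 counts in 3 or more mice. It was done with edgeR 4.0.16 in R 4.3.3, with TMM, robust quasi-likelihood and 5 groups in 1 fit. The fit was checked on simulated counts for mouse gRho over uninjected P23H alone, with the same spread set for all rows. That check does not cover the WT, human gRHO or saline comparisons. DESeq2 1.42.0 was an alternative. Depth per mouse was 6980992 to 25046363 mature miRNA reads. Intervals are Wilson 95% and cover counting error only. Summed miR-9 was given no p-value.

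The text names the mir-9 rows, list members past the threshold, the 5 rows most like miR-9, and mir-124-1, mir-182 and mir-204; mir-9b was added after its values were seen. Members, lists and left-out libraries were chosen with earlier results of these data known.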

Additional observations from a re-analysis of the deposited data

How the results depend on the processing

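No mir-9 row passed 0.05 in the 273 further estimates (lowest adjusted p 0.266, edgeR), but 40 of them gave the other sign. An estimate is that of 1 row in 1 comparison and setting, so mir-9-1 and mir-9-2 are counted separately here. For uninjected P23H over WT, 11 rows of all were called with DESeq2 and 11 without the low-count filter. With the rows at 2 levels kept 1 was called, and with only the groups compared 0. Without the right eye of mouse gRho mouse 1 and uninjected mouse 2 the count was also 0. These libraries were the lowest in photoreceptor, neuronal and mir-9 rows and are called poor below. For mouse gRho over WT 7 were called without TMM factors and 7 without the rRNA-rich libraries; for mouse gRho over uninjected P23H 1 was called with the rows at 2 levels kept. The causes were not tested.

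For uninjected P23H over WT, mir-9-1 and mir-9-2 turned to 0.10 and 0.11 without TMM factors, 0.0093 and 0.016 without both poor libraries, and 0.18 and 0.18 without the rRNA-rich ones, where mir-9-3 was 0.020. With 1 uninjected mouse left after dropping the rRNA-rich libraries, mir-9-1, mir-9-2 and mir-9-3 were -0.13, -0.12 and -0.14 for mouse gRho and -0.060, -0.045 and -0.072 for human gRHO over uninjected P23H. For human gRHO over mouse gRho they were -0.049, -0.036 and -0.043 with the rows at 2 levels kept and -0.14, -0.12 and -0.13 without both poor libraries, and mir-9-1 was -0.0056 without the filter and -0.0017 with only the groups compared. For mouse gRho over WT mir-9-3 was 0.20 without TMM factors, 0.083 without the filter, 0.12 with the rows at 2 levels kept and 0.056 without both poor libraries. Summed miR-9 (log2) for uninjected P23H over WT was -0.40 per total reads and -0.43 with TMM factors, a scale chosen after seeing the data, beside 0.02. Without the rRNA-rich libraries it was -0.25 for mouse gRho and -0.11 for human gRHO over uninjected P23H; without both poor libraries it was -0.0027 for human gRHO over uninjected P23H and -0.057 for human gRHO over mouse gRho.

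Leaving out 1 mouse at a time, the calls ran from 0 to 60 for uninjected P23H over WT, 0 to 64 for mouse gRho over WT, 0 to 1 for mouse gRho over uninjected P23H and 0 to 1 for human gRHO over mouse gRho. mir-9-1 ran from -0.55 to -0.02 for uninjected P23H over WT, 0.07 to 0.35 for mouse gRho over WT, and over uninjected P23H from 0.13 to 0.70 for mouse gRho, 0.14 to 0.68 for human gRHO and 0.54 to 1.10 for saline. For human gRHO over mouse gRho mir-9-1 ran from -0.11 to 0.15, mir-9-2 from -0.10 to 0.17, mir-9-3 from -0.092 to 0.15 and summed miR-9 from -0.031 to 0.12. For mouse gRho over WT mir-9-3 ran from -0.10 to 0.044 and summed miR-9 from 0.042 to 0.61. Summed miR-9 ran from -0.27 to 0.37 for uninjected P23H over WT, and over uninjected P23H from -0.046 to 0.54 for mouse gRho, -0.0027 to 0.58 for human gRHO and 0.31 to 0.89 for saline. No paired analysis was possible because the labels give no replicate numbers shared across groups, which concerns the comparisons between groups; right and left eyes were paired within a mouse.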
